A study of Mus musculus with 8 samples.

Results

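The 10 genes described here encode receptors through which epithelial cells sense lipids, bile acids and foreign chemicals, and they were taken by symbol from a count table of 45777 genes. They are the oxysterol receptors LXR-alpha (Nr1h3) and LXR-beta (Nr1h2), the bile acid receptor FXR (Nr1h4), the xenobiotic receptors PXR (Nr1i2) and CAR (Nr1i3), the fatty acid receptors PPAR-alpha, -delta and -gamma (Ppara, Ppard, Pparg), the aryl hydrocarbon receptor (Ahr) and the orphan receptor ERR-alpha (Esrra). RNA sequencing was done on colonic organoids, epithelial cultures grown in Matrigel from isolated crypts of 9-week-old male mice. The groups were Reg3aΔIEC organoids (KO, 4 libraries, replicates 5 to 8), in which a Villin-Cre transgene deletes exons between loxP sites of Reg3a in intestinal epithelium, and Reg3afl/fl organoids (WT, 4 libraries, replicates 13 to 16), which carry the same floxed allele. Both were harvested 3 days after passage and received no treatment, so no receptor ligand was added as a treatment. Ligands that the culture medium or Matrigel may have held were not examined. The labels give 1 mouse per genotype in 4 wells in one place and 3 mice in another, so the replicate spread behind every p-value may be technical, and genotype cannot be told apart from mouse or organoid line.

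Most of these receptors are nuclear receptors that carry a zinc finger domain for DNA and a pocket for a ligand, and LXR, FXR, PXR, CAR and the PPARs bind DNA as a pair with a retinoid X receptor (RXR). AHR is built differently: it waits in the cytoplasm in a complex with HSP90 and other chaperone proteins, and pairs with ARNT in the nucleus once a ligand is bound. In the gut, FXR and PXR respond to bile acids and foreign chemicals, the PPARs to fatty acids, and AHR to tryptophan metabolites from diet and microbes.

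Library totals were 37182098 to 49256171 counts, given below as CPM (counts scaled to library size). A gene listed at 0 counts may still have held 3, a level of 0.0609 to 0.0807 CPM, or 6 counts and 0.122 to 0.161 CPM where the 2 reads of a pair each gave a count (counting error only). Reg3a had 0 counts in each of the 8 libraries, so the deletion could not be checked in RNA. All 8 intestinal epithelium markers, such as Epcam and Vil1, were measured, but not all were level. Cdx2 and Vil1 were called higher in KO by edgeR, DESeq2 and limma-voom, with log2 fold changes of 0.33 and 0.25. None was called lower by any of these, although Krt18 was lower at an unadjusted edgeR p under 0.05. Together the 8 markers held 10513 to 11128 CPM in KO and 10123 to 10900 CPM in WT. Stromal markers summed to 0.506 to 0.784 CPM in KO and 0.303 to 0.791 CPM in WT, with Col1a2 and Dcn at 0 counts throughout. Hepatocyte and adipocyte markers summed to 0.449 to 0.598 and 0.432 to 0.788 CPM, with Cyp7a1, Plin1, Adipoq and Lep at 0 counts throughout. KO replicate 6 stood apart in endothelial and blood cell markers, at 2.08 CPM against 0.486 to 1.04 CPM in the other libraries, with 30 counts of Cdh5, 20 of Pecam1 and 14 of Kdr. Markers within the epithelium moved with genotype, where 7.63% of all genes tested were called higher and 8.26% lower in KO. Of 8 absorptive colonocyte markers 6 rose and 1 fell in KO (summed 4572 to 4777 CPM in KO, 2793 to 3276 in WT). The 1 that fell, Aqp8, was called by neither DESeq2 nor limma-voom, while the 6 that rose were called by both. Of 8 goblet cell markers 5 fell and 0 rose (113 to 143 against 158 to 213 CPM), and of 8 stem and cycling cell markers 6 fell and 0 rose (922 to 971 against 1037 to 1202 CPM). No marker of either kind was higher by unadjusted edgeR p under 0.05, DESeq2 or limma-voom. Their part in the results below was not tested, and in bulk libraries fewer cells of a type and less RNA per cell cannot be told apart.

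Promoter windows of 3 receptors are shown to set their letters beside their levels: Nr1h4, the 1 receptor called different between the genotypes, Nr1i2, which was level between them, and Pparg, the most abundant. Each window runs from 250 bases before to 50 after a transcript start (RefSeq, GRCm38.p6, read 5′ to 3′ on the gene's strand). Capitals mark the nuclear receptor half-site AGGTCA and the AHR core GCGTG on either strand, so that TGACCT and CACGC are their reverse complements.
Nr1h4, chr10:89506609-89506908, minus strand: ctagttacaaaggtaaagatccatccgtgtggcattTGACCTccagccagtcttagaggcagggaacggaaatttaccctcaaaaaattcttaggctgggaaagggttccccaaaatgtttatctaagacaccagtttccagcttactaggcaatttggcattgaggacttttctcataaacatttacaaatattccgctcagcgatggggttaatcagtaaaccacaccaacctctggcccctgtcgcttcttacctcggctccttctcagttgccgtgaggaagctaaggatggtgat
Nr1i2, chr16:38294775-38295074, minus strand: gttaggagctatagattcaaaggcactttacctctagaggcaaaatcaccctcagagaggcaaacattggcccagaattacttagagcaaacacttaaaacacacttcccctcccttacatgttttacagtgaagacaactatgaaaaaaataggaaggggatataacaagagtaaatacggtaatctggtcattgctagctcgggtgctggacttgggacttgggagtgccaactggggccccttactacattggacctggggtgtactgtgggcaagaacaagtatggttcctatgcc
Pparg, first of 3 starts, chr6:115360894-115361193, plus strand: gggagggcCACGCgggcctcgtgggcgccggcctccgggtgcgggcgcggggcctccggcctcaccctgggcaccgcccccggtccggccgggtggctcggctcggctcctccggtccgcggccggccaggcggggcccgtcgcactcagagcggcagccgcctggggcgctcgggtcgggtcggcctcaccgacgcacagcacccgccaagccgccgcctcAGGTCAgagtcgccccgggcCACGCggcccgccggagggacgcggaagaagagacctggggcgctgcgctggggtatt

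The Nr1h4 window held 1 half-site, 214 bases before the start, and no AHR core. Neither motif was in the Nr1i2 window, although its GC content (45.3%) was close to that of Nr1h4 (45.7%). The window of the first Pparg start was far richer in GC (80.3%) and held a half-site 28 bases before the start and 2 AHR cores. This held for that start only. The second start had 62.7% GC, 1 half-site and no AHR core, and the third had 40.3% GC and neither motif. Which start these cells use was not examined. Among the 9 receptors with a window in the table (all but Ahr), the half-site was found for Nr1h4 and Pparg, and the AHR core for Ppara, Ppard, Pparg and Esrra. Counted by window, 3 of the 12 receptor windows held the half-site and 4 the AHR core. Of all 32851 windows of this length, 16.3% held the half-site and 32.4% the AHR core. Paired half-sites spaced as the PPARs (AGGTCANAGGTCA) or LXRs (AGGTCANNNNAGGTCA) prefer were in 0 receptor windows and in 0.0396% and 0.0152% of all windows. A match is only a description of letters. The RefSeq span of Nr1h4 extends upstream of this window to 89533645, so it covers 1 start of the gene.

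The receptors spanned a wide range of levels, compared here by the authors' TPM, which is scaled for transcript length. Pparg led at 192 ± 4.85 TPM in KO and 190 ± 7.28 TPM in WT (SD, n = 4). Ppard (102 ± 2.10 and 99.8 ± 3.97 TPM) and Esrra (102 ± 1.21 and 92.4 ± 7.31 TPM) followed, and their libraries overlapped each other in both genotypes. Next came Nr1h2 (63.8 ± 2.43 and 64.9 ± 3.96 TPM), Nr1i2 (46.4 ± 1.22 and 45.5 ± 0.957 TPM), Nr1h4 (22.3 ± 0.415 and 18.3 ± 1.41 TPM) and Ahr (5.44 ± 0.203 and 5.93 ± 0.372 TPM). Nr1i3 (2.60 ± 0.713 and 1.66 ± 0.380 TPM), Nr1h3 (0.748 ± 0.271 and 0.537 ± 0.194 TPM) and Ppara (0.567 ± 0.211 and 0.347 ± 0.133 TPM) were lowest. Within each genotype every other neighbouring pair in this order was apart, meaning that the lowest library of one gene exceeded the highest of the next, except Nr1h3 and Ppara, which overlapped.

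**Figure D1:**
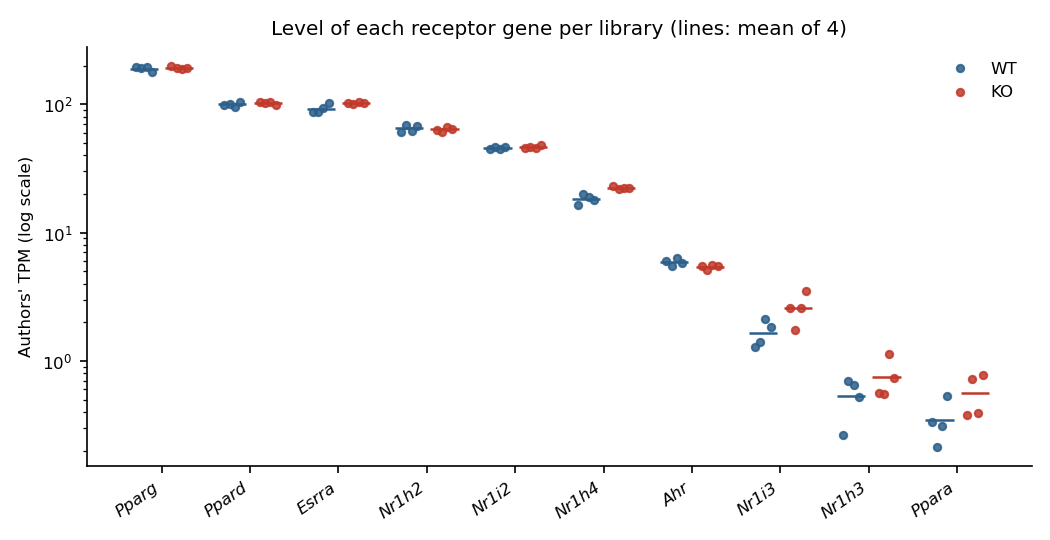
Level of each receptor gene in the authors' TPM (vertical axis, log scale) in 4 WT (blue) and 4 KO (red) libraries, with the mean as a line. Pparg lies near 190 TPM, while Nr1h3 and Ppara lie below 1.2 TPM in all 8 libraries.

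Within each receptor family 1 member carried most of the transcripts. Nr1h2 made up 98.9% ± 0.368 of LXR TPM in KO and 99.2% ± 0.282 in WT (SD, n = 4), so nearly all LXR transcripts were those of LXR-beta. Among the PPARs, Pparg held 65.2% ± 0.773 in KO and 65.4% ± 1.76 in WT, Ppard 34.6% ± 0.807 and 34.5% ± 1.72, and Ppara 0.193% ± 0.0730 and 0.120% ± 0.0478. PXR exceeded CAR, with an Nr1i2 to Nr1i3 ratio of 13.8 to 26.6 in KO and 21.4 to 34.5 in WT libraries. No test was run on these shares, and each lay closer between the genotypes than the library range within them.

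Across all genes, 7.63% of the 14945 tested had higher and 8.26% had lower levels in KO by edgeR's quasi-likelihood test (adjusted p under 0.05 over all genes tested). All 10 receptors passed the filter on low counts. Of them 1 was called higher, Nr1h4, and 0 were called lower, a share near that background. At an unadjusted edgeR p under 0.05 the counts were 3 higher (Nr1h4, Nr1i3, Ppara) and 1 lower (Ahr), and DESeq2 and limma-voom each called Nr1h4 higher and 0 receptors lower. The median log2 fold change of the receptors was 0.048, against -0.0012 over all genes tested. Libraries of the genotypes did not overlap in CPM for 3 of the 10 (Nr1h4, Ppara, Ahr), against 20.2% of all genes tested.

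**Figure D2:**
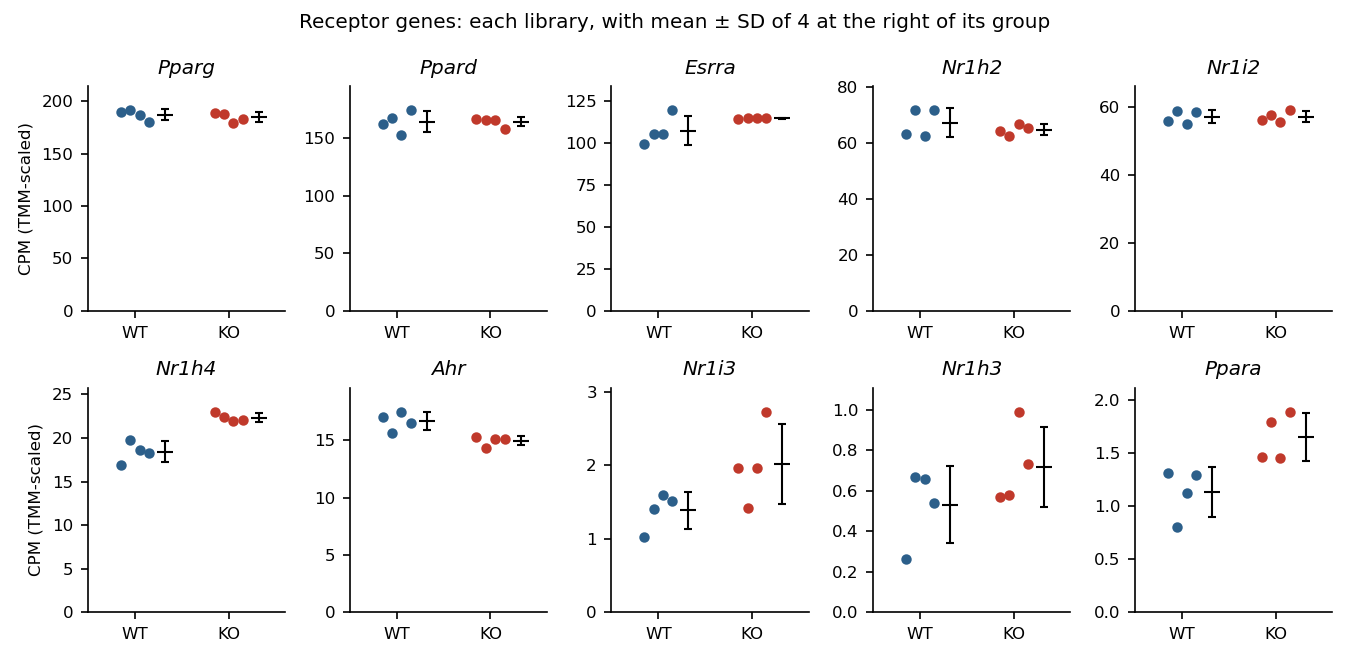
TMM-scaled CPM of the 10 receptor genes (vertical axes from 0, 1 scale per panel) in each WT (blue) and KO (red) library, with mean ± SD of 4 beside each group. All KO points of Nr1h4 lie above all WT points, while those of Nr1i2, Ppard and Pparg mix.

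Nr1h4, the bile acid receptor FXR (NCBI Gene ID 20186, chromosome 10, 89454234 to 89533645, GRCm38), rose in KO. Its level was 23.0, 22.3, 21.9 and 22.0 CPM in KO replicates 5 to 8 and 16.9, 19.8, 18.6 and 18.3 CPM in WT replicates 13 to 16. Every KO library was above every WT library, and the KO libraries were the more alike. The log2 fold change was 0.28 ± 0.06 (SE, 95% interval 0.15 to 0.40), or 1.21-fold, with an edgeR adjusted p = 0.00567. Under 16 alternatives in scaling, test, filter and libraries it stayed between 0.24 and 0.32, with adjusted p-values of 5.74e-04 to 0.0237. By size this was a modest change, larger than that of 81.2% of all tested genes. The 3 genes whose log2 CPM followed Nr1h4 most closely over the 8 libraries, among 12699 with a mean of at least 1 CPM, were Slc30a10 (Pearson r = 0.99), Mylk (0.99) and Pnp2 (0.99). These correlations describe 8 points that share the genotype split. Slc30a10, a manganese exporter gene, averaged 37.8 ± 3.25 CPM in the KO and 19.1 ± 4.70 CPM in the WT libraries (SD, n = 4).

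Neither oxysterol receptor gene was called. Nr1h2 (chromosome 7, 44549616 to 44553968) ran from 62.3 to 66.8 CPM in KO and from 62.3 to 71.7 CPM in WT, with a log2 fold change of -0.05 ± 0.06 (SE, 95% interval -0.17 to 0.06, edgeR adjusted p = 0.578). Nr1h3 (chromosome 2, 91184061 to 91202829) had 24, 28, 47 and 34 counts in the KO libraries and 11, 33, 31 and 20 in the WT libraries. At such counts the interval was wide (log2 fold change 0.42, 95% interval -0.25 to 1.08, edgeR adjusted p = 0.419). It takes in both no difference and a clear rise, so these libraries do not settle whether Nr1h3 differs.

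The xenobiotic receptors differed in abundance and in precision. Nr1i2 (chromosome 16, 38248349 to 38294849), which encodes PXR, was at 56.2, 57.8, 55.7 and 59.2 CPM in KO and 56.0, 59.0, 55.2 and 58.7 CPM in WT. The genotypes overlapped fully, and the 95% interval of the log2 fold change ran only from -0.10 to 0.10 (edgeR adjusted p = 0.998). Nr1i3 (chromosome 1, 171213934 to 171218845), which encodes CAR, had 83, 69, 93 and 127 counts in KO and 43, 70, 75 and 56 in WT. Its log2 fold change of 0.54 ± 0.21 (SE, 95% interval 0.09 to 0.99) had an edgeR adjusted p = 0.102, and of the alternatives, leaving out KO replicate 6 made it pass (0.68, adjusted p = 0.0410). Its counts are uncertain for another reason. In GENCODE M21, 3304 of its 4414 exonic bases (74.9%) are also exonic in Tomm40l on the opposite strand, and the sources used here do not give whether reads were counted by strand. Tomm40l, a mitochondrial import gene, was far more abundant, with 49.1 ± 1.37 CPM in the KO and 51.8 ± 1.05 CPM in the WT libraries (SD, n = 4), and was not called (log2 fold change -0.08, edgeR adjusted p = 0.273).

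None of the 3 PPAR genes was called. Pparg (chromosome 6, 115360879 to 115490404) ran from 179 to 189 CPM in KO and from 180 to 191 CPM in WT, with a 95% interval of the log2 fold change from -0.10 to 0.07 (edgeR adjusted p = 0.845). Ppard (chromosome 17, 28232754 to 28301469) was at 167, 166, 166 and 158 CPM in KO and 162, 168, 153 and 174 CPM in WT, with an interval from -0.10 to 0.10 (edgeR adjusted p = 0.991). For these genes and Nr1i2 the intervals leave room for changes of less than 10% in either direction. Ppara (chromosome 15, 85734910 to 85806851) had 62, 87, 69 and 88 counts in KO and 55, 40, 53 and 48 in WT. Scaled for depth, every KO library (1.46 to 1.89 CPM) exceeded every WT library (0.808 to 1.32 CPM), yet the log2 fold change of 0.55 ± 0.19 (SE) did not pass (edgeR adjusted p = 0.0728). In the authors' TPM the genotypes overlapped for Ppara (0.377 to 0.772 in KO, 0.215 to 0.531 in WT). The transcript length implied by counts and FPKM varied 1.62-fold between libraries for this gene, against 1.05- to 1.33-fold for the others, so its TPM does not follow its counts in a fixed ratio.

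Ahr (chromosome 12, 35497979 to 35534989) was at 15.3, 14.4, 15.1 and 15.1 CPM in KO and 17.0, 15.7, 17.5 and 16.5 CPM in WT. The genotypes did not overlap in CPM but did in TPM, and the log2 fold change of -0.16 ± 0.06 (SE, 95% interval -0.28 to -0.03) did not pass over all genes (edgeR adjusted p = 0.0940, and 0.0679 to 0.202 over the alternatives). Esrra (chromosome 19, 6910977 to 6922048), whose product drives genes of mitochondrial respiration, was at 114, 115, 115 and 115 CPM in KO and 99.5, 105, 105 and 120 CPM in WT. The KO libraries were nearly identical and lay inside the wider WT range, with a log2 fold change of 0.10 ± 0.05 (SE) and an edgeR adjusted p = 0.252. WT replicate 16, the highest, decided this: without it the difference was 0.15 and passed (adjusted p = 0.0263).

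Of the 3 tested partner genes 1 rose and 1 fell in KO (7.63% and 8.26% of all genes). Rxra, the RXR-alpha gene, rose from 66.9, 67.5, 60.9 and 69.6 CPM in WT to 82.9, 74.7, 80.9 and 82.1 CPM in KO, a log2 fold change of 0.28 ± 0.05 (SE) with an edgeR adjusted p = 0.00292. Rxrb, the RXR-beta gene, fell from 48.5, 48.4, 52.2 and 54.3 CPM to 46.0, 46.6, 44.8 and 44.2 CPM (-0.16 ± 0.05 SE, edgeR adjusted p = 0.0408). Neither gene's genotypes overlapped. The Rxrb call was fragile: it ended without any 1 of the 4 KO libraries or WT replicate 15 or 16 (adjusted p = 0.0570 to 0.128) and with no low-count filter (0.0649). Rxrg had 0 counts in all libraries and Arnt2 up to 10, while Arnt, the partner of AHR, was not called. The median log2 fold change of the 3 tested partner genes, of 5 listed, was -0.07.

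Among 10 tested repressors, chaperones and inhibitors, 3 fell and 0 rose in KO, among them genes of the cytoplasmic complex that holds AHR. Over all genes 8.26% fell and 7.63% rose. No gene of this list was higher by unadjusted edgeR p under 0.05, DESeq2 or limma-voom. Hsp90ab1, the HSP90-beta gene, fell from 2290, 2278, 2291 and 2246 CPM in WT to 2095, 2108, 2021 and 2031 CPM in KO (-0.14 ± 0.03 SE, edgeR adjusted p = 0.00718). Ptges3, the p23 gene, fell from 274 ± 13.5 to 235 ± 9.91 CPM (SD, n = 4; log2 fold change -0.22, edgeR adjusted p = 0.00578). Both are small changes, of less than 15%, and HSP90 and p23 serve many other clients. The list median was -0.07.

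Of 8 tested coactivators 1 rose and 0 fell (0 also by unadjusted p, DESeq2 and limma-voom), with a list median of -0.00027. Over all genes 7.63% rose and 8.26% fell. The coactivator gene that rose was Ppargc1b, which encodes PGC-1-beta, a coactivator of ERR-alpha and the PPARs. It was at 34.7, 32.4, 38.7 and 36.7 CPM in KO and 31.7, 29.6, 29.9 and 32.5 CPM in WT. The genotypes overlapped by KO replicate 6 and WT replicate 16 alone (log2 fold change 0.21 ± 0.06 SE, edgeR adjusted p = 0.0349). It lost its call when KO replicate 5, 7 or 8 was left out, when WT replicate 13, 14 or 15 was (0.0578 to 0.121) and with no low-count filter (0.0501). Ppargc1a, the PGC-1-alpha gene, named after its values were seen, was not called, with 48.0 CPM in the KO and 47.8 CPM in the WT libraries.

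**Figure D3:**
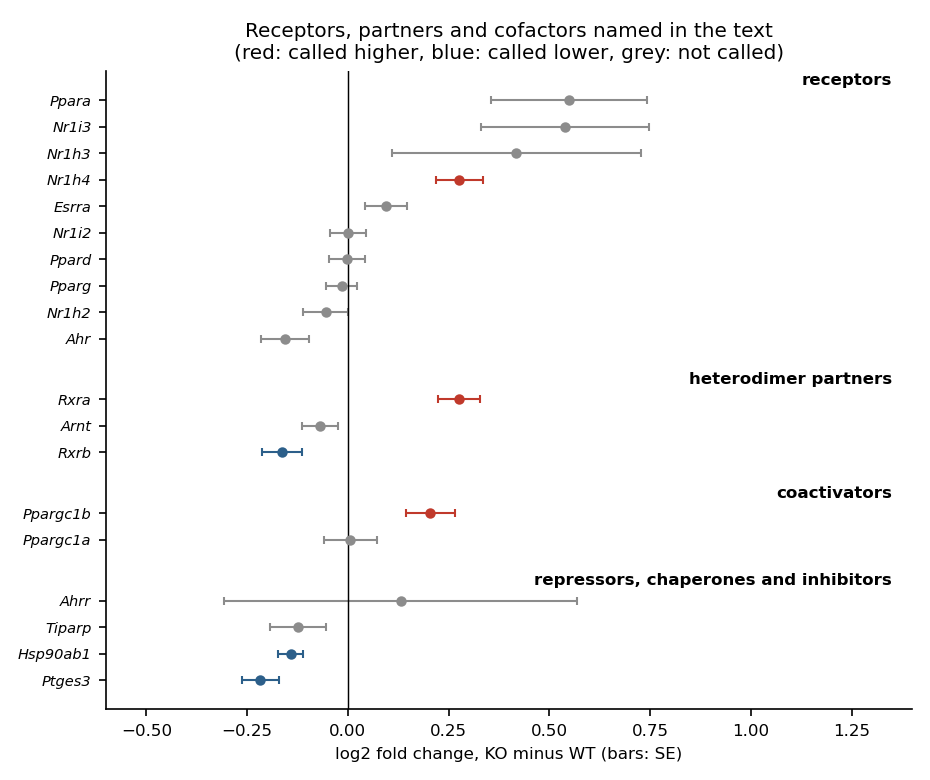
Fitted log2 fold change, KO minus WT (horizontal axis, bars: SE of the fit to 4 and 4 libraries), of the tested receptors and partners and of the coactivators, repressors and chaperones named in the text. Red marks genes called higher, blue genes called lower and grey genes not called. Rxra and Nr1h4 lie together near 0.28, and Hsp90ab1 and Ptges3 lie below 0.

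Known target genes were taken from lists written with earlier results of these data known. Of the PXR and CAR targets, 11 of 14 tested rose and 1 fell in KO, with a list median of 0.46 against -0.0012 over all genes. Over all genes 7.63% rose and 8.26% fell. Of the 11, Cyp3a13 lost its call without KO replicate 7 or 8 or WT replicate 13 (edgeR adjusted p = 0.0513 to 0.0622). Ugt1a1, the bilirubin-conjugating enzyme gene, was at 55.7, 55.1, 62.2 and 64.6 CPM in KO and 29.7, 33.0, 31.95 and 30.9 CPM in WT (log2 fold change 0.92 ± 0.06 SE). Cyp2c55, a cytochrome P450 gene, was at 713, 707, 747 and 804 CPM in KO and 336, 426, 457 and 400 CPM in WT (0.88 ± 0.08 SE). Both genotypes were far apart for these genes, with edgeR adjusted p-values of 1.41e-06 and 9.69e-06. Aldh1a1, a retinaldehyde dehydrogenase gene, and Gsta1, a glutathione transferase gene, had log2 fold changes of 0.86 and 0.47. The 11 also held the drug efflux pump genes Abcb1a, Abcb1b, Abcc2 and Abcc3 (0.45, 0.40, 0.55 and 0.36), named with the next after their values were seen. Cyp2c65 had the largest change of the list (1.59 ± 0.17 SE), at 4.04 to 5.38 CPM in KO and 1.27 to 2.17 CPM in WT. Gstm1, another glutathione transferase gene, fell by 0.27. Cyp2b10, a gene often used to read out CAR and, like Gstm1, named after its values were seen, was not called, with 10.6 CPM in the KO and 11.8 CPM in the WT libraries (log2 fold change -0.16, edgeR adjusted p = 0.157). Cyp3a11 and Cyp3a25 had 0 counts in every library. Nr1i2 itself was level, as given above. Of 8 absorptive colonocyte markers 6 rose and 1 fell in KO (7.63% and 8.26% of all genes). Whether receptor level or cell makeup bears on the values of this list was not tested. Many list members belong to families of similar genes, so the split of reads between copies is uncertain.

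Of 9 tested AHR targets 4 rose and 1 fell in KO (7.63% and 8.26% of all genes), with a list median of 0.13. The 4 that rose are genes of conjugation and antioxidant defence that the factor NRF2 is also known to control: Ugdh, which makes UDP-glucuronic acid (337 ± 13.4 CPM in KO, 255 ± 5.36 in WT), Nfe2l2, the NRF2 gene itself (356 ± 6.402 and 295 ± 4.15), the quinone reductase gene Nqo1 (192 ± 6.02 and 160 ± 2.59) and Ugt1a6a (30.1 ± 2.98 and 20.3 ± 2.38; SD, n = 4). Their log2 fold changes were 0.40, 0.27, 0.26 and 0.57, with edgeR adjusted p-values of 2.48e-05 to 6.92e-04. Ugt1a6a and Ugt1a1 share their last exons, so their reads are not fully separate. Aldh3a1, an aldehyde dehydrogenase gene named after its values were seen, fell from 4.32, 4.73, 4.00 and 3.78 CPM in WT to 2.48, 2.93, 2.49 and 2.41 CPM in KO (-0.71 ± 0.12 SE, edgeR adjusted p = 0.00129). Other genes of the list, also named after their values were seen, were not called. Cyp1a1 averaged 7.18 CPM in the KO and 7.29 CPM in the WT libraries. Tiparp was at 42.7 and 46.5 CPM, Cyp1b1 at 8.86 and 9.97 CPM, and Ahrr at 0.351 and 0.323 CPM. Whether AHR, NRF2 or neither lies behind the values of this list was not tested.

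For FXR, 4 of 8 listed targets had enough counts to test, of which 2 rose and 0 fell (0 also by unadjusted p, DESeq2 and limma-voom). Over all genes 7.63% rose and 8.26% fell. Slc10a2, the apical bile acid transporter gene, which FXR signalling is known to hold down in the ileum, rose. It was at 64.7, 69.6, 70.1 and 78.3 CPM in KO and 37.6, 39.4, 56.2 and 38.8 CPM in WT (log2 fold change 0.72 ± 0.11 SE, edgeR adjusted p = 6.39e-04). WT replicate 15 lay above the other WT libraries and below all KO libraries. Abcb4, a phospholipid transporter gene, was at 0.598 to 0.780 CPM in KO and 0.298 to 0.465 CPM in WT (0.88 ± 0.25 SE, edgeR adjusted p = 0.0293). Abcb4 lost its call when KO replicate 5, 7 or 8 was left out, when WT replicate 13, 15 or 16 was (0.0604 to 0.0919) and by DESeq2 (0.0563), and it did not pass a filter of 1 CPM in 4 libraries. The basolateral bile acid exporter is a dimer of the products of Slc51a and Slc51b, both induced by FXR and both scarce here, and named after their values were seen. Slc51a had 27, 12, 21 and 9 counts in KO and 0, 0, 9 and 0 in WT and was too low to test. Slc51b had 21, 23, 15 and 22 counts in KO and 5, 19, 11 and 0 in WT (log2 fold change 1.16 ± 0.52 SE, edgeR adjusted p = 0.157, or 0.0476 without WT replicate 14). Nr0b2, the repressor SHP that FXR classically induces, had 0 counts in all 8 libraries, and Fgf15 was not called (means of 1.95 and 2.24 CPM).

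Of 23 tested PPAR targets 8 rose and 1 fell in KO (7.63% and 8.26% of all genes), with a list median of 0.12. Ehhadh, an enzyme gene of peroxisomal fatty acid oxidation, rose from 20.9, 21.1, 20.4 and 19.9 CPM in WT to 27.3, 26.4, 25.0 and 27.3 CPM in KO. The genotypes were well apart, with a log2 fold change of 0.36 ± 0.05 (SE) and an edgeR adjusted p = 4.03e-04. Cpt2, of mitochondrial fatty acid import, rose by 0.20, and Fabp4, a fatty acid binding protein gene, by 0.73, from 1.87, 1.88, 2.38 and 2.00 CPM in WT to 2.77, 4.06, 3.42 and 3.27 CPM in KO. Plin2, which coats lipid droplets and was named after its values were seen, fell from 118 to 103 CPM (-0.20, edgeR adjusted p = 0.0107), a call that ended without KO replicate 8 (0.0513). The number of targets that rose was 5 without KO replicate 8. Fabp1, Cyp4a10, Cyp4a14 and Adipoq had 0 counts throughout, and Cd36 had 50 counts in KO replicate 6, the library with endothelial marker counts, and 0 in the other 7.

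LXR targets were called higher at a share near that of all genes, and no ERR-alpha target was called by edgeR. Of 12 tested LXR targets 1 rose and 0 fell (7.63% and 8.26% of all genes). By unadjusted p, DESeq2 and limma-voom 0 fell as well. The list median was -0.02. Smpdl3a, a phosphodiesterase gene on this list, rose from 46.2, 56.7, 56.0 and 54.3 CPM in WT to 61.8, 69.0, 66.0 and 64.1 CPM in KO (0.29 ± 0.06 SE, edgeR adjusted p = 0.00682). Whether LXR induces it in these cells was not tested. The lipogenic targets Srebf1, Fasn, Scd1 and Scd2, named after their values were seen, were not called, with log2 fold changes of -0.04, -0.0021, -0.05 and 0.04. Abca1 and Abcg1, the cholesterol exporter genes most often used to read out LXR, had at most 16 and 11 counts in any library and were not tested. Of 14 tested ERR-alpha targets, enzymes of the citric acid cycle and respiratory chain, 0 rose and 0 fell by edgeR (list median 0.01). By unadjusted edgeR p under 0.05 2 were higher, Ndufs1 among them, and 0 lower. DESeq2 called those 2 higher and 0 lower, and limma-voom called 0 in either direction. Atp5b, with 2035 ± 18.2 CPM in the KO and 2125 ± 32.6 CPM in the WT libraries, and the citrate synthase gene Cs, at 765 ± 16.5 and 759 ± 26.8 CPM (SD, n = 4), were the most abundant of these.

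**Figure D4:**
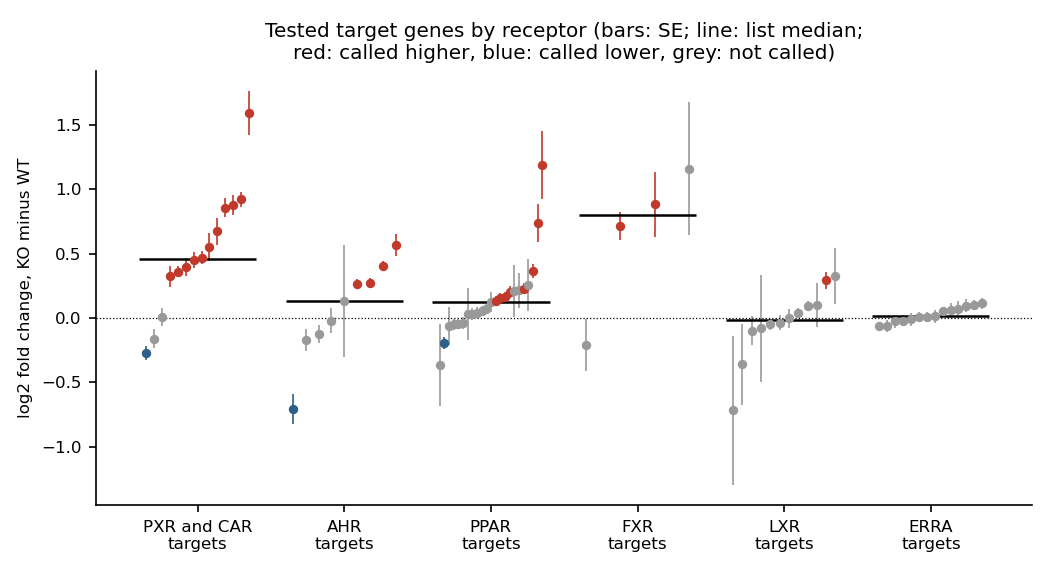
Fitted log2 fold change, KO minus WT (vertical axis, bars: SE), of every tested gene in 6 target lists, ordered by value within each list, with the list median as a black line. Red marks genes called higher, blue genes called lower and grey genes not called. The median of the PXR and CAR list is 0.46 and that of the LXR list -0.02. The FXR median of 0.80 rests on 4 genes. They include Slc10a2, which FXR signalling is known to hold down in the ileum, so this median is not a measure of FXR output.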

How the data were processed

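Gene expression was read from 1 table that the authors deposited for 8 organoid libraries. Its count columns are whole reads per gene, not normalized, and its FPKM and TPM columns are the authors' own length-scaled values, per the file headers. HTSeq, TopHat, TopHat2 and Bowtie2, and the build GRCm38, are named per the submitters' processing notes, with no version or role. Libraries were stranded and made from mRNA, per the labels' protocols. In each library more genes had 2 counts than 1, so both mates of a pair may have been counted, and halved counts were an alternative. The others were further scalings (upper quartile, library totals, size factors of DESeq2), DESeq2, limma-voom, no filter, a filter of 1 CPM in 4 libraries, each library left out, and an adjusted p of 0.01. No 2 libraries were alike within sampling noise (chi-square per degree of freedom at least 4.94 over genes with a mean of at least 20 counts).

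Genes with low counts were removed by filterByExpr. TMM factors scaled the rest, which were fitted with edgeR 4.0.16 in R 4.3.3 (glmQLFit, glmQLFTest, genotype as the 1 term), with Benjamini-Hochberg adjustment over 14945 genes. "Called", "rose" and "fell" mean an adjusted p under 0.05. The SE is the log2 fold change divided by the square root of F, and the 95% interval uses the total degrees of freedom of the fit. CPM are TMM-scaled, with the SD of 4 libraries. The alternatives used DESeq2 1.42.0 and limma 3.58.1. TPM was used only to compare levels between genes. Motifs were searched in RefSeq windows with Python 3.11.15, and exon overlap was taken from GENCODE M21. On simulated counts for KO against WT (14945 genes, 50 changed per fold), 58% of 1.25-fold, 84% of 1.5-fold, 94% of 2-fold and 90% of 3-fold changes were recovered and 12 unchanged genes were called. These counts were drawn with the dispersions that edgeR fitted to the data. Far fewer genes were changed than the 1140 higher and 1234 lower called in the data. Recovery in the data may therefore differ.

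The receptors and all lists were chosen with earlier results of these data known. Text names the 10 receptors and, of each list of partners or targets, up to 4 genes ranked by adjusted p among those under 0.05 (for a list in which no gene passed, its 2 most abundant genes). It also names the 3 genes most correlated with the receptor of smallest p. Every other gene of these lists was named after its values were seen, whether or not the text says so beside it. Ahrr, Tiparp, Nr0b2, Esrra and Perm1 stand on 2 lists each. Some genes of the lists are counted but not reported by name here.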

Additional observations from a re-analysis of the deposited data

Results flagged for a closer look

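In 72 groups of 4 libraries, for the receptors and the other genes of the lists that were named by rule or fell, the library at either end was compared with its neighbours, and 5 lay far enough away to be picked out. Chance picks out about 1 in 20 such groups. Ppard was lowest in KO replicate 8, at 158 CPM against 166 to 167 CPM in the other KO libraries. Aldh3a1 was highest in KO replicate 6, at 2.93 CPM against 2.41 to 2.49 CPM, and Gsta1 was lowest in the same library, at 151 CPM against 162 to 163 CPM. Slc10a2 was highest in WT replicate 15, at 56.2 CPM against 37.6 to 39.4 CPM, and Ugdh in the same library, at 263 CPM against 251 to 253 CPM.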

How the results depend on the processing

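By the mean TPM of all 8 libraries, the order of the 10 receptors was the same with FPKM and without any 1 library. Within KO, neighbours that overlapped changed places: Ppard (103.0 TPM) passed Esrra (101.9) without KO replicate 8, and Ppara (0.625) passed Nr1h3 (0.619) without KO replicate 7. Within WT no place changed. No paired analysis was possible because the genotypes share no replicate numbers. Leaving out 1 library at a time gave 696 to 1386 genes higher in KO and 724 to 1404 genes lower in KO (1140 and 1234 with all; 757 higher without KO replicate 5, 696 and 724 without KO replicate 8, 808 lower without WT replicate 13), 1 to 2 receptors higher (Nr1i3 without KO replicate 6, Esrra without WT replicate 16), 0 to 1 partners lower, 0 to 1 coactivators higher, 0 to 1 genes of the repressor and chaperone list higher (1 without WT replicate 16), 1 to 3 FXR targets higher (3, with Slc51b, without WT replicate 14), 5 to 8 PPAR targets higher and 0 to 1 lower, and 0 to 2 ERR-alpha targets higher. At an adjusted p of 0.01, there were 562 genes higher in KO and 597 genes lower in KO, with 0 partners lower, 0 coactivators higher, 1 FXR target higher, and 5 PPAR targets higher and 0 lower. DESeq2 called 1 FXR target and 2 ERR-alpha targets higher. With no low-count filter 0 partners were lower and 0 coactivators higher, and with at least 1 CPM in 4 libraries 1 FXR target was higher. Scalings moved the median of all genes by at most 0.0038 on the log2 scale. Depth limits Nr1h3, Ppara, Nr1i3 and the scarce FXR targets.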

Other observations

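Some listed genes were too scarce for a test and belong in no comparison, and those given here were chosen after their values were seen. Npc1l1, the gene of the intestinal cholesterol uptake protein, had 11, 12, 9 and 10 counts in KO replicates 5 to 8 and 0, 6, 5 and 0 counts in WT replicates 13 to 16. Abca1 had 6, 16, 0 and 0 counts in KO and 5, 0, 0 and 0 in WT, and Abcg1 had 4, 11, 0 and 0 in KO and 0 in all WT libraries. For both exporter genes KO replicate 6, the library with endothelial marker counts, held the most.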
